A study of Mus musculus with 18 samples.

Results

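Small intestinal crypts of tamoxifen-treated mice without Cre recombinase were compared between day 7 and day 2 after the first tamoxifen injection. Of the 18 RNA-Seq libraries of the series, the 6 WT libraries of these 2 days were used, 3 per day, chosen by their labels. These PRMT1 fl/fl mice (WT) carried LoxP sites in both copies of Prmt1 and no Vil-CreERT2 transgene, so that Prmt1, the arginine methyltransferase deleted in the KO littermates, stayed intact. They were 8 to 12 weeks old and received 2 mg tamoxifen per intraperitoneal injection. Mice collected at day 2 had been given 2 injections, and mice collected at day 7 had been given 5. Day, number of injections and time since the last injection change together in this design and cannot be told apart, and no mouse without tamoxifen was analysed here. Each library was ribosomal RNA-depleted total RNA from the purified crypts of 1 mouse. Crypt preparations keep some villus cells, intraepithelial lymphocytes and stroma, so in these bulk samples fewer cells of a type and less RNA per cell cannot be told apart.

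Crypts are the epithelial pockets in which Lgr5-positive stem cells, their dividing progeny and Paneth cells reside, and absorptive enterocytes mature as they leave for the villus. Interferons are cytokines that bind receptors on epithelial cells and, through JAK kinases and transcription factors of the STAT and IRF families, switch on interferon-stimulated genes such as the IFIT, OAS and immunity-related GTPase families and the genes of antigen presentation. In the intestine a low level of this signalling is present without infection. Interferon-stimulated response elements are short promoter sequences that these factors bind.

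Libraries of day 2 held 20609314 to 31493484 counts, and those of day 7 held 15285285 to 25596195. Esr1, whose ligand-binding part is carried by CreERT2, stood at 0.128 to 0.360 CPM (counts scaled to the size of the library, so that libraries of different depth can be compared) in the 6 libraries and at 3.19 to 6.47 CPM in the 6 KO libraries of these days. Prmt1 was 26.6 ± 0.520 CPM at day 2 and 23.8 ± 1.93 CPM at day 7 (SD, n = 3 each). The fitted log2 fold change, -0.16, was near its SE of 0.14 (adjusted p = 0.493). The crypt markers were present in every library, Lgr5 at 29.0 to 39.0 CPM, Olfm4 at 976 to 1571 CPM and Lyz1, the Paneth cell lysozyme, at 3109 to 6695 CPM. The summed level of 10 Y-linked genes was 251 and 222 CPM in day 2 replicates 1 and 2, 187 CPM in day 7 replicate 3, and between 0.128 and 0.504 CPM in the other 3 libraries, so the days differ in this respect. The first principal component of the 500 most variable genes held 42.9% of the variance and placed all 3 day 2 libraries (-21.4 to -6.98) apart from all 3 day 7 libraries (11.8 to 18.4).

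Between day 2 and day 7, 9 of 40 interferon-stimulated genes and 2 of 21 genes of antigen presentation fell in WT crypts, together with Areg, Ido1, Upp1, Nampt, Pls1 and Hpgd, whereas the lipid desaturase gene Scd2 and a set of mostly GC-rich genes rose. Of 21349 genes tested, 118 (0.553%) passed a threshold of 0.05 in the quasi-likelihood test of edgeR after Benjamini-Hochberg adjustment over all genes (called genes), 64 lower (0.3%) and 54 higher (0.253%) at day 7. Log2 fold changes, always day 7 minus day 2 unless stated, ran from -2.29 to -0.52 in the lower and from 0.50 to 1.87 in the higher genes, and the median over all tested genes was 0.01. In each of the 118 the 3 libraries of one day lay beyond all 3 of the other, a pattern seen in 14.1% of all tested genes for lower and 14.4% for higher values. Adjusted p-values clustered near the threshold, with 115 of the 118 between 0.03 and 0.05 and a smallest value of 0.0126. The call therefore depended on single libraries: 0 genes were called without day 2 replicate 1 or without day 7 replicate 3 (3743 and 2973 at an unadjusted p under 0.05), 6 without day 2 replicate 3, 10 without day 7 replicate 1, 147 without day 7 replicate 2 and 535 without day 2 replicate 2. All 118 kept their direction in every one of these 6 fits.

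The interferon-stimulated genes were the list with the most called members. Of 40 members, all of them tested, 9 were called lower and 0 higher, beside 0.3% of all genes called lower. The median log2 fold change of the list was -1.36, against 0.01 for all tested genes. 39 members had a negative fold change (48.8% of all genes), 36 had an unadjusted p under 0.05 (11.5% of all genes in this direction), and in 34 the 3 day 7 libraries lay below all 3 day 2 libraries (14.1% of all genes). The median over the list, relative to the mean of the day 2 libraries, was 0.41, -0.29 and -0.13 on the log2 scale in day 2 replicates 1 to 3 and -0.99, -1.43 and -1.33 in day 7 replicates 1 to 3. The 3 day 7 libraries thus stood clear of the day 2 libraries, and day 2 replicate 1 was the highest of all. Without day 2 replicate 1 or without day 7 replicate 3, 0 members were called in edgeR's test (33 and 35 at an unadjusted p under 0.05), and 1, 2, 3 and 24 were called without day 2 replicate 3, day 7 replicate 1, day 7 replicate 2 and day 2 replicate 2. The median of the list stayed between -1.60 and -1.04 in these 6 fits.

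Response elements were searched in the promoters of the 9 called members as GAAANNGAAA on either strand, within the 250 bases before and 50 after each gene start of RefSeq (GRCm38.p6, the build of the count table). 6 of the 9 had a promoter window and 4 of these held the motif. In the whole list 21 of 28 genes with a window (75%) held it, against 1079 of all 27025 genes with a window (3.99%). The stretches of the 4 called genes are shown, 5′ to 3′ on the strand of the gene with the motif in capitals, to show the letters that the search found.
Irgm1: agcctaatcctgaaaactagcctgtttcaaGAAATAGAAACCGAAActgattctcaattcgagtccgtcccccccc
Irgm2: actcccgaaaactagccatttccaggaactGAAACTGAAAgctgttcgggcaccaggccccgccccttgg
Tgtp2: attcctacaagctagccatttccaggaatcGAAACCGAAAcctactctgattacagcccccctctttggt
Ifit1bl1: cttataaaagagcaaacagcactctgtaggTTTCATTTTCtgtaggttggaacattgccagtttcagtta
The Irgm1 stretch lies at chr11:48871405-48871480 on the minus strand and holds 2 overlapping matches. Those of Irgm2 (chr11:58214883-58214952, plus strand), Tgtp2 (chr11:49064243-49064312, minus strand) and Ifit1bl1 (chr19:34602033-34602102, minus strand) hold 1 each, in Ifit1bl1 on the opposite strand. The windows of Oasl2 and Ifit2 did not hold these letters, and Zbp1 and Usp18 were among those without a window in the table. A match is a description of the sequence and no measure of binding.

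Among the signalling genes, Usp18, the protease that removes ISG15 from proteins and restrains the interferon receptor, was 11.6, 7.12 and 7.13 CPM at day 2 and 4.28, 2.56 and 2.98 CPM at day 7, a fold change of -1.38 (SE 0.24, adjusted p = 0.0345). The transcription factor genes Stat2 (-0.25) and Irf9 (-0.33) were not called and had the negative values nearest to 0 in the list. Irf7, an interferon-induced transcription factor, had a fold change of -1.34 without a call.

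Zbp1, a sensor of Z-form nucleic acids that can trigger cell death, was called lower. It stood at 20.3, 13.3 and 19.4 CPM at day 2 and at 6.98, 5.43 and 5.61 CPM at day 7, which is 34.0% of the day 2 mean (log2 fold change -1.55, SE 0.27, adjusted p = 0.0345). The RNA sensors Ddx58 and Dhx58 had fold changes of -0.72 and -0.96 and were not called. Ifih1, the sensor of long double-stranded RNA, which is not in the list and was named after its values were seen, was called at -0.70, from 84.2 ± 15.7 to 51.7 ± 6.36 CPM (SD, n = 3 each).

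The immunity-related GTPases, which attack the vacuoles of intracellular microbes, had the lowest median of the families within the interferon list. All 6 of the list (Igtp, Iigp1, Irgm1, Irgm2, Tgtp1 and Tgtp2) had day 7 libraries below all day 2 libraries, with a median log2 fold change of -1.99, and 3 were called, beside 14.1% of all genes without overlap and 0.3% called in this direction. Irgm2 was 25.6, 23.7 and 46.3 CPM at day 2 and 10.2, 4.73 and 7.18 CPM at day 7, a change of -2.09 (SE 0.40, adjusted p = 0.0402). The highest day 2 library was replicate 3 here, not replicate 1. Irgm1 was 44.1, 45.1 and 50.2 CPM at day 2 and 24.5, 26.5 and 21.8 CPM at day 7, a change of -0.94 (SE 0.18, adjusted p = 0.0361) with little spread within either day. Tgtp2 was low, at 2.46, 3.16 and 5.68 CPM and then 1.91, 0.639 and 0.394 CPM (-1.88, SE 0.42, adjusted p = 0.0488). Tgtp1 and Tgtp2 are near-identical, as are several genes of this cluster, so their counts of uniquely aligned fragments are uncertain. Iigp1 had the most negative value of the list, -3.08, without a call (adjusted p = 0.0975). Irgm2 shares exonic bases with Igtp, which stood at -2.69 (adjusted p = 0.0549).

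The antiviral effector families also had negative medians. All 5 IFIT genes, whose proteins bind foreign RNA, had non-overlapping days (14.1% of all genes) with a median of -1.93, and 2 were called (0.3%). Ifit1bl1 was 57.0, 27.9 and 35.0 CPM at day 2 and 13.3, 8.95 and 9.02 CPM at day 7 (-1.93, SE 0.38, adjusted p = 0.0422). Ifit2 was 4.02, 2.85 and 1.93 CPM and then 1.04, 1.41 and 1.36 CPM, a change of -1.22 (SE 0.27, adjusted p = 0.0476). Of the 6 OAS genes, which activate RNase L or bind RNA, Oasl2 alone was called, and the median of the family was -1.28. Oasl2 was 67.7, 24.6 and 34.2 CPM at day 2 and 14.1, 9.01 and 12.8 CPM at day 7, with day 2 replicate 1 as the highest library and no overlap between the days (-1.81, SE 0.35, adjusted p = 0.0420). The 4 guanylate-binding protein genes had a median of -1.34 with 0 calls. Mx1 was the exception in the list, at 3.31 ± 0.204 CPM at day 2 and 3.37 ± 1.22 CPM at day 7 (log2 fold change 0.04).

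**Figure D1:**
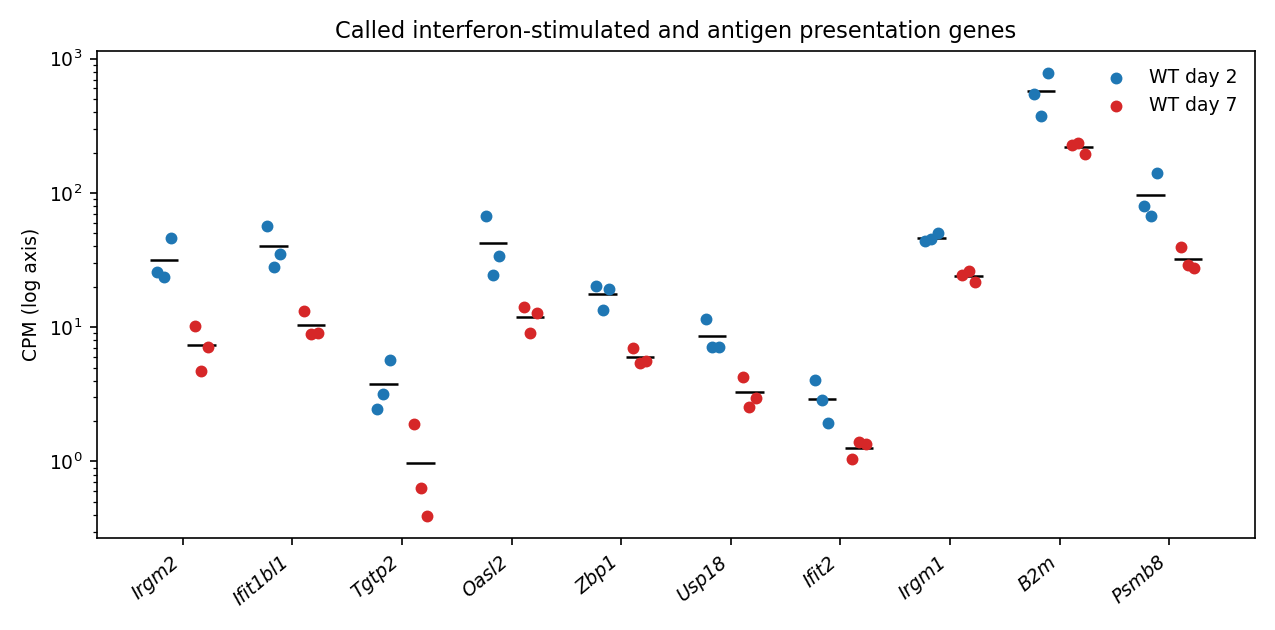
CPM of 8 called interferon-stimulated genes and of B2m and Psmb8 in WT crypts on a log axis, with 1 point per library (3 at day 2, blue, and 3 at day 7, red) and a black line at the mean of each day. In each gene the 3 day 7 points lie below the 3 day 2 points, as in Irgm1 with 44.1 to 50.2 CPM against 21.8 to 26.5 CPM.

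Further called genes that are known as interferon-induced lie outside the list and were named by their size of change or after their values were seen. Ido1, the enzyme that opens the tryptophan ring, had the largest fall of all called genes, from 8.82, 7.78 and 24.9 CPM to 4.64, 1.28 and 2.28 CPM (-2.29, SE 0.48, adjusted p = 0.0469). Herc6, the ISG15 ligase of the mouse, was 41.3, 14.4 and 20.8 CPM and then 8.46, 4.86 and 5.30 CPM (-2.02, SE 0.35, adjusted p = 0.0345), and the gene model Gm45193 called beside it shares its exons. Ifi47, another immunity-related GTPase, had the smallest adjusted p of all genes together with Upp1: it was 28.2, 24.6 and 30.3 CPM at day 2 and 11.4, 10.5 and 8.19 CPM at day 7 (-1.46, SE 0.21, adjusted p = 0.0126). The gene models Gm12185, Gm5431 and Gm12250, which lie among the immunity-related GTPase genes on chromosome 11, had changes of -2.23, -2.12 and -1.99. Slfn2, a schlafen family gene, fell from 11.3 ± 3.64 to 3.93 ± 0.126 CPM (SD, n = 3 each). Ube2l6, which conjugates ISG15, had a change of -1.55, the partners Parp9 and Dtx3l of -0.87 and -0.88, Psme2 of the proteasome activator of -0.86, and the death ligand gene Tnfsf10 of -0.63. Parp9 and Dtx3l overlap in their exons and are not independent of each other.

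Of the 21 genes of MHC antigen presentation tested, 2 were called lower (0.3% of all genes) and 0 higher, with a median log2 fold change of -0.98. 18 members were lower at an unadjusted p under 0.05 (11.5% of all genes). B2m, the light chain of MHC class I, was 549.6, 377 and 784 CPM at day 2 and 228, 237 and 195 CPM at day 7, 38.6% of the day 2 mean (-1.37, SE 0.24, adjusted p = 0.0345). Psmb8, a subunit of the immunoproteasome, was 79.7, 67.7 and 141 CPM and then 39.7, 29.3 and 27.8 CPM (-1.57, SE 0.30, adjusted p = 0.0396). In both genes day 2 replicate 3 was the highest library. Psmb8 shares exonic bases with the gene model Gm20496, so its counts are uncertain to that extent. The 7 genes of MHC class II and its partners (H2-Aa, H2-Ab1, H2-Eb1, H2-DMa, H2-DMb1, Cd74 and Ciita) had a median of -2.07 and days that did not overlap in any of the 7 (14.1% of all genes), and 0 of them were called. H2-Aa was 108, 109.5 and 356 CPM at day 2 and 47.2, 15.4 and 42.0 CPM at day 7 (-2.45, SE 0.91, adjusted p = 0.147), with day 2 replicate 3 far above the other libraries.

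Markers of immune cells were summed in the same libraries. The 20 T cell and intraepithelial lymphocyte markers summed to 243, 282 and 336 CPM at day 2 and to 270.5, 145 and 112 CPM at day 7 (exact two-sided permutation test, p = 0.2, where 0.1 is the smallest p that 3 against 3 allow), with 0 of 20 called and a median log2 fold change of -0.62. All 20 had a negative fold change (48.8% of all genes), and 8 were lower at an unadjusted p under 0.05 (11.5% of all genes). The 14 B cell and plasma cell markers summed to 64.3 to 78.6 CPM at day 2 and 45.3 to 53 CPM at day 7 (p = 0.1 in the same exact permutation test), and the 15 myeloid markers to 37.0 to 46.7 and 34.5 to 41.3 CPM (p = 0.5). Day 7 replicate 1, whose T cell sum lay within the range of day 2, had an interferon list median of -0.99, below all day 2 libraries. Ptprc, the pan-leukocyte gene, was 44.6, 46.3 and 40.3 CPM at day 2 and 45.3, 15.5 and 13.7 CPM at day 7. The part of these cells in the fall of the interferon and MHC genes was not tested.

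The genes of the interferon ligands, receptors and kinases were looked up after the list had been seen. Ifnb1, Ifnl2 and Ifnl3 had 0 counts in all 6 libraries, and Ifng, the type II interferon of lymphocytes, had 4, 0 and 7 counts at day 2 and 0, 1 and 0 at day 7, below the filter for testing. At totals of 15285285 to 31493484 counts, a difference in these ligands was not detectable at this depth. Of the tested receptor and kinase genes none was called. Il10rb, a subunit of the interferon lambda and IL-10 receptors, had a log2 fold change of -0.64, Jak2 of -0.62 and the transcription factor gene Irf1 of -0.66. The other receptor chains had values of -0.23 (Ifnar1), -0.49 (Ifnar2), -0.12 (Ifngr1), -0.49 (Ifngr2) and -0.23 (Ifnlr1), and the kinases Jak1 and Tyk2 of -0.27 and 0.20.

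Mature epithelial functions had lower medians at day 7 with few calls. The median log2 fold change of the 22 absorptive enterocyte genes was -0.76, with 0 called and 16 lower at an unadjusted p under 0.05 (11.5% of all genes). The 20 genes of fat absorption and lipoproteins had a median of -0.96 with 0 called and 14 lower at that threshold. Fabp2, the intestinal fatty acid-binding protein, was 2319, 1329 and 2845 CPM at day 2 and 693, 1198 and 462 CPM at day 7 (-1.46, SE 0.39, adjusted p = 0.0666). Apob, the core protein of chylomicrons, had a value of -1.03 (adjusted p = 0.0953). The summed enterocyte level was 21388 to 40936 CPM at day 2 and 18414 to 20218 CPM at day 7, so the ranges did not overlap, but day 2 replicate 2 was near day 7 (p = 0.1 by exact permutation, two-sided, which 3 against 3 cannot go below). Stromal, muscle and endothelial markers summed to 118, 75.1 and 186 CPM at day 2 and 39.9, 54.8 and 81.1 CPM at day 7 (p = 0.2 in the same exact permutation test).

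The called gene of the lists of mature epithelial functions was Sult1b1, a sulfotransferase of the xenobiotic list (44 tested, median -0.61, 1 called, beside 0.3% of all genes called lower). Of the 44, 21 were lower at an unadjusted p under 0.05 (11.5% of all genes), and 18 had day 7 libraries below all day 2 libraries (14.1%). Sult1b1 was 241, 155 and 246 CPM at day 2 and 89.9, 119 and 69.4 CPM at day 7 (-1.21, SE 0.24, adjusted p = 0.0383). Pls1 and Hpgd are called genes outside these lists and were named after their values were seen. Pls1, the plastin of the microvillus actin core, was 874, 621 and 1185 CPM and then 429, 425 and 379 CPM (-1.12, adjusted p = 0.0454). Hpgd, which inactivates prostaglandins, fell from 141 ± 40.7 to 60.8 ± 16 CPM (SD, n = 3 each). In all 3 genes day 2 replicate 2 was the lowest day 2 library, and the days still did not overlap.

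Areg, the EGF receptor ligand amphiregulin, was the called member of the regenerative epithelium list (17 tested, median -0.61). It was 8.82, 3.69 and 8.77 CPM at day 2 and 1.69, 0.958 and 2.41 CPM at day 7, 23.8% of the day 2 mean (-2.04, SE 0.42, adjusted p = 0.0454). The related ligand gene Ereg had a value of -0.49 (adjusted p = 0.538). Upp1, a uridine phosphorylase, was 62.0, 49.6 and 90.0 CPM at day 2 and 31.0, 28.8 and 25.8 CPM at day 7 (-1.24, SE 0.18, adjusted p = 0.0126). Nampt, the rate-limiting enzyme of NAD salvage, which was named after its values were seen, was 107, 70.5 and 95.4 CPM and then 41.7, 51.7 and 35.6 CPM (-1.08, SE 0.21, adjusted p = 0.0383). Dnaja1, an HSP40 cochaperone, was the called gene of the heat shock list (15 tested, median -0.39), with 118, 109.6 and 111 CPM at day 2 and 76.2, 85.7 and 63.7 CPM at day 7 (-0.58, adjusted p = 0.0465).

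**Figure D2:**
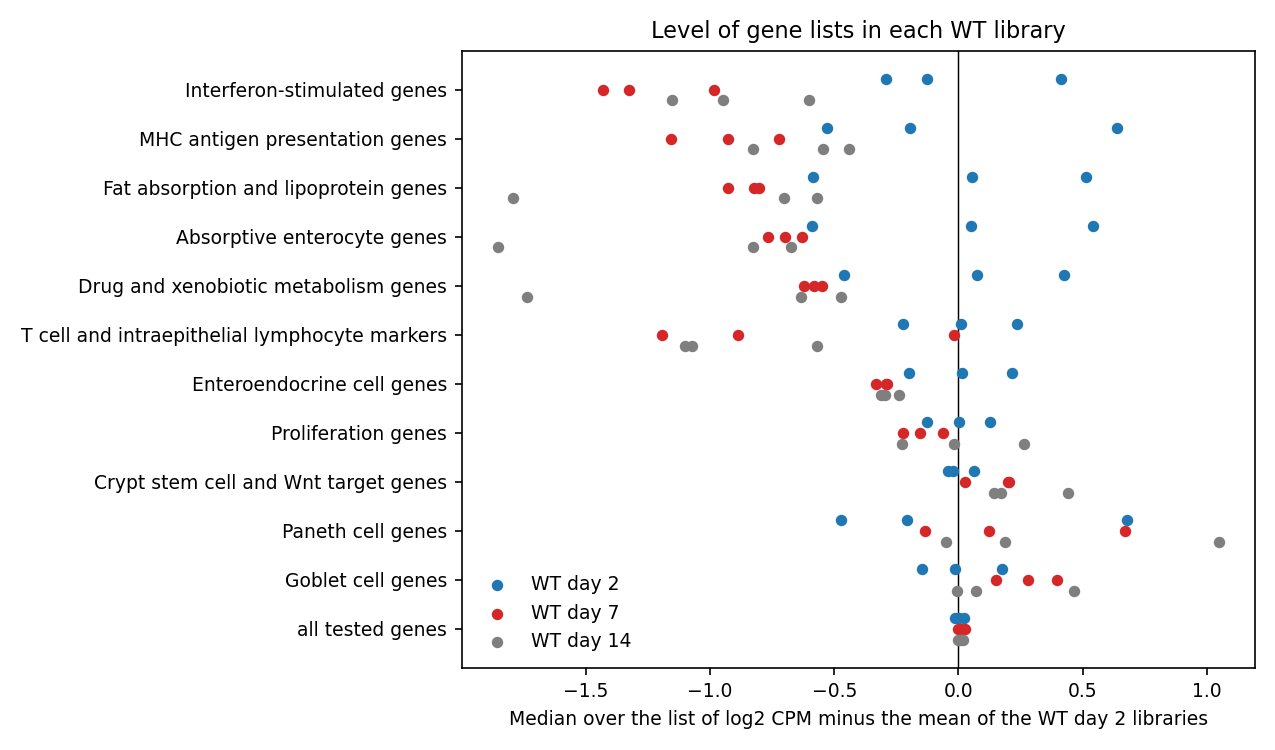
Median over each gene list of the log2 CPM of a library minus the mean of the 3 WT day 2 libraries, with 1 point per library and 3 libraries per day (day 2 blue, day 7 red, day 14 grey), and all tested genes in the last row. The interferon list lies at -1.43 to -0.99 at day 7 against -0.29 to 0.41 at day 2, whereas the Paneth cell list spans -0.47 to 0.68 at day 2 and -0.13 to 0.67 at day 7.

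Genes of crypt base cells and of division had medians nearer to 0 than the enterocyte and interferon genes. The 22 stem cell and Wnt target genes had a median of 0.15, the 18 Paneth cell genes of 0.13, the 26 proliferation genes of -0.19 and the 17 tuft cell genes tested of 0.02, each with 0 called. Lgr5, the receptor that marks the stem cells, was 36.4, 32.1 and 29.4 CPM at day 2 and 38.3, 39.0 and 29.0 CPM at day 7 (0.12, SE 0.28, adjusted p = 0.824). Olfm4, a secreted marker of the same cells, was 1527 ± 39.1 CPM at day 2 and 1158 ± 191 CPM at day 7 (SD, n = 3 each), -0.40 with an SE of 0.28. The 16 goblet cell genes tested had a median of 0.21 with 0 called, and the mucin gene Muc2 was 2312, 2374 and 2511 CPM at day 2 and 3582, 3075 and 3997 CPM at day 7 (0.57, SE 0.19, adjusted p = 0.0992). Of the estrogen response genes, which tamoxifen can act on through Esr1, 0 of 14 were called (median -0.08). Of the circadian clock genes 0 of 19 were called, with a median of -0.33. Of these 19, 6 were lower at an unadjusted p under 0.05 (11.5% of all genes). In 9 the 3 day 7 libraries lay below all 3 day 2 libraries (14.1% of all genes). The hour of collection is not in the sources used here.

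Scd2, the stearoyl-CoA desaturase that makes monounsaturated fatty acids, had the largest rise of the named protein-coding genes above 10 CPM. It was 41.8, 63.4 and 94.0 CPM at day 2 and 240.4, 156 and 217 CPM at day 7, 308% of the day 2 mean (1.62, SE 0.35, adjusted p = 0.0469). Mir5114, at 1.87, lies within Scd2, and its fragments cannot be told apart from those of Scd2. Among the 16 fatty acid synthesis genes tested Scd2 was the 1 called (median 0.22). Fasn, the fatty acid synthase, had a value of 0.52 with days that did not overlap (adjusted p = 0.0840), Scd1 of 1.30 (adjusted p = 0.176), and Me1, the NADPH-forming malic enzyme, of -1.0 (adjusted p = 0.0738). The 24 cholesterol synthesis and uptake genes had a median of 0.10 with 0 called.

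The other called increases were smaller or in genes of low level. Slc6a7, a proline transporter, was 9.27, 8.85 and 5.57 CPM at day 2 and 20.8, 22.7 and 19.4 CPM at day 7 (1.41, SE 0.25, adjusted p = 0.0345). The glutamate receptor subunit gene Grin1 (1.14), the scaffold gene Mpp3 (1.02), the CDK5 activator Cdk5r1 (1.14), the matrix gene Sned1 (1.05) and Fry (1.06), whose product binds microtubules, were called as well. Ppard, a lipid-activated nuclear receptor that acts in crypt stem cells, was 46.1, 57.5 and 40.5 CPM at day 2 and 89.5, 80.0 and 81.5 CPM at day 7 (0.80, SE 0.16, adjusted p = 0.0383). The mitochondrial coactivator gene Ppargc1b (0.76) and the glutamine transporter gene Slc1a5 (0.78) were also called, and all 3 were named after their values were seen. Card14 and Inava, which act in NF-kB signalling, were among the 5 increases of smallest p, from 17.7 ± 0.435 to 28.2 ± 2.31 CPM and from 41.7 ± 5.07 to 70.8 ± 3.34 CPM (SD, n = 3 each).

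**Figure D3:**
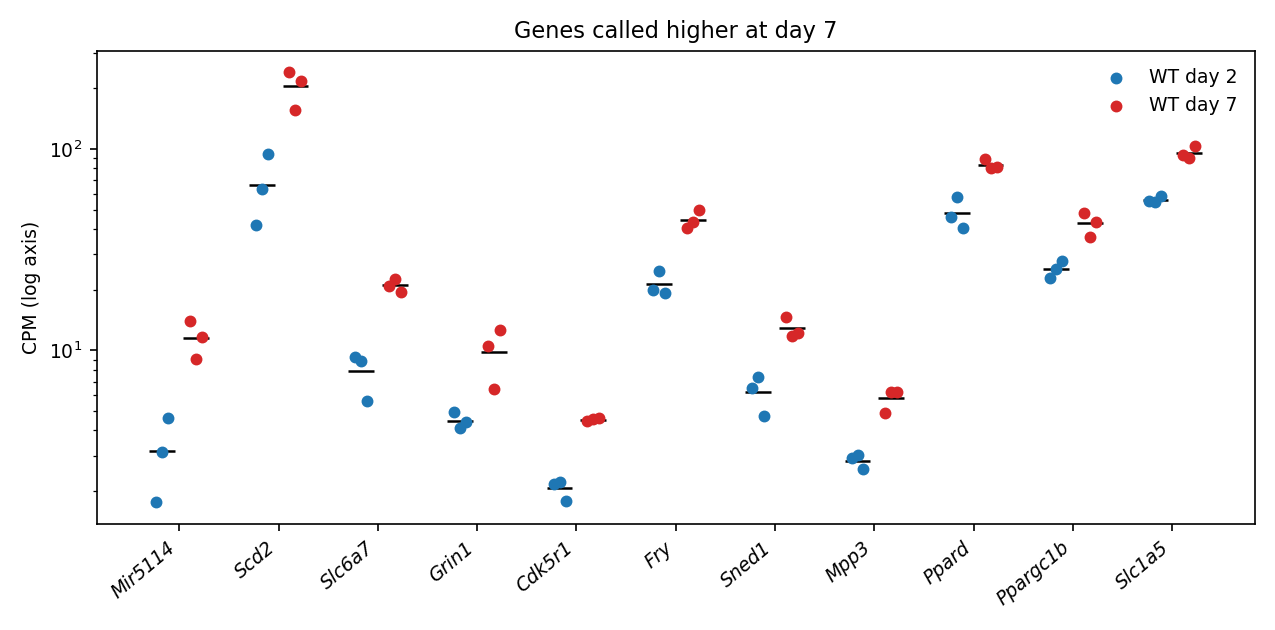
CPM of 11 genes called higher at day 7 in WT crypts on a log axis, with 1 point per library (3 at day 2, blue, and 3 at day 7, red) and a black line at the mean of each day. In every gene the 3 day 7 points lie above the 3 day 2 points, with Scd2 at 156 to 240.4 CPM against 41.8 to 94.0 CPM.

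The GC share of the transcripts moved with the direction of the calls. The median GC share of the longest transcript was 56.8% in the 54 genes called higher, 43.7% in the 64 called lower and 49.1% in all tested genes. Over 5 equal bins of the tested genes from the lowest to the highest GC share, the median log2 fold change was -0.12, -0.05, 0.00, 0.08 and 0.17. The called increases numbered 0, 1, 4, 12 and 37 over these bins and the called decreases 31, 18, 9, 4 and 2. With a correction for GC share in each library, added after these values were seen, 21 genes were called, 2 of them higher, and 2 of the interferon list. The median of the interferon list was -1.33 with that correction, against -1.36 without it. With the correction the calls of 4 named higher genes were lost while their fold changes stood at 1.65 for Scd2, 1.28 for Slc6a7, 1.04 for Fry and 0.55 for Card14 (from 1.62, 1.41, 1.06 and 0.67), with adjusted p-values in edgeR of 0.0768, 0.0850, 0.0871 and 0.0807. Under upper quartile scaling, which moved the median of all genes from 0.01 to 0.09, 171 genes were called, 100 of them higher.

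**Figure D4:**
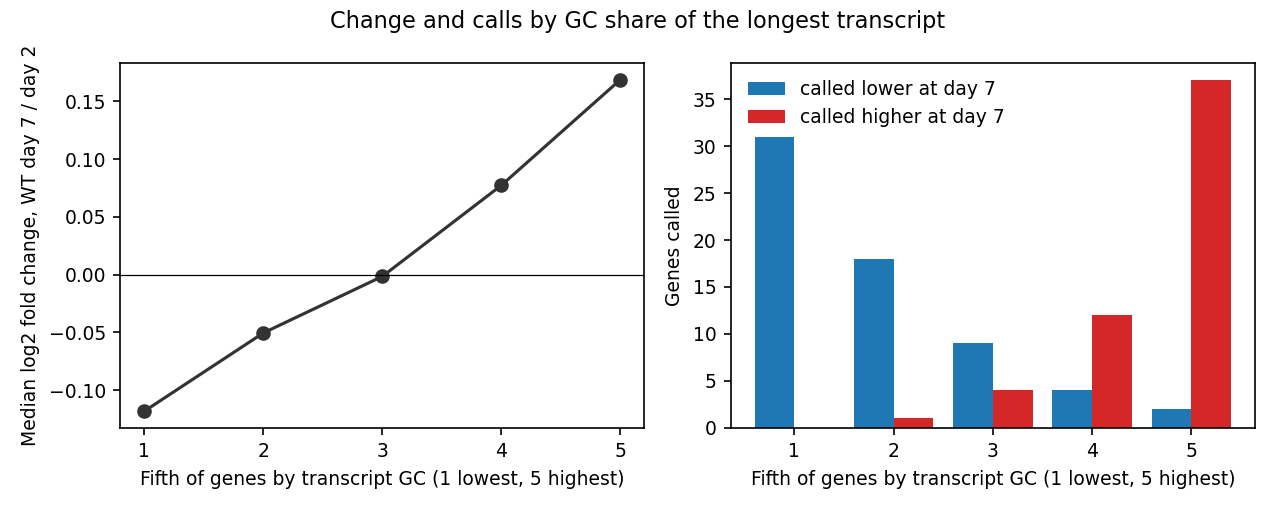
Left, median log2 fold change (WT day 7 over day 2) of the tested genes in 5 equal bins by the GC share of the longest transcript, from -0.12 in the lowest to 0.17 in the highest bin. Right, number of genes called lower (blue) and higher (red) at day 7 in each bin, with 31 and 0 in the lowest and 2 and 37 in the highest.

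WT crypts of day 14, whose mice had also received 5 injections, are described by their levels. The median of the interferon list lay at -1.15, -0.95 and -0.60 relative to day 2 in the 3 day 14 libraries. Zbp1 was 9.37, 4.46 and 11 CPM and Scd2 385, 320.4 and 171 CPM at day 14. Between day 14 and day 7, 17 genes (0.0796%) were called, which included 1 of the 64 lower and 1 of the 54 higher genes. These values share the day 2 or the day 7 libraries with the comparison above.

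The KO crypts, whose mice were treated in the same way, gave a comparison of the same days that shares no library with the WT comparison. The median log2 fold change of the interferon list was -0.09 between KO day 7 and KO day 2, against -1.36 in WT. Relative to the mean of WT day 2, the list median was -0.28, -0.01 and -0.35 in KO day 2 replicates 1 to 3. In KO day 7 replicates 1 to 3 it was -0.07, -0.85 and -0.54. KO day 7 replicates 2 and 3 thus lay below all KO day 2 libraries, and replicate 1 lay within their range. 2 members were called lower and 1 higher in KO, where 8.8% and 7.21% of all genes were called. The difference between the KO and the WT change was itself tested in the same model, and 9 of the 40 members were called (4.37% of all genes), each with a more positive change in KO (1.33% of all genes in that direction). They included Ifit3b, Igtp, Iigp1, Irgm1, Irgm2, Mx2, Usp18 and Zbp1. For Zbp1 this difference was 1.6 (SE 0.38, adjusted p = 0.0225), with KO levels of 12.8, 17.9 and 12.6 CPM at day 2 and 18.5, 11.3 and 15.1 CPM at day 7. The KO levels of Zbp1 at day 2 overlapped those of WT day 2. For Irgm2 they did not, with 15.6, 20.7 and 13.5 CPM in KO and 25.6, 23.7 and 46.3 CPM in WT at day 2, so that lower KO levels at day 2 entered this difference. This count rests on single WT libraries. It was 0 of 40 when replicate 2 of day 7 was left out, 1 when replicate 3 of day 7 was, 2 for replicate 1 of day 2 and 4 for replicate 3 of day 2. It was 10 for replicate 1 of day 7 and 8 for replicate 2 of day 2. No KO library was left out, so the dependence on single KO libraries was not tested.

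**Figure D5:**
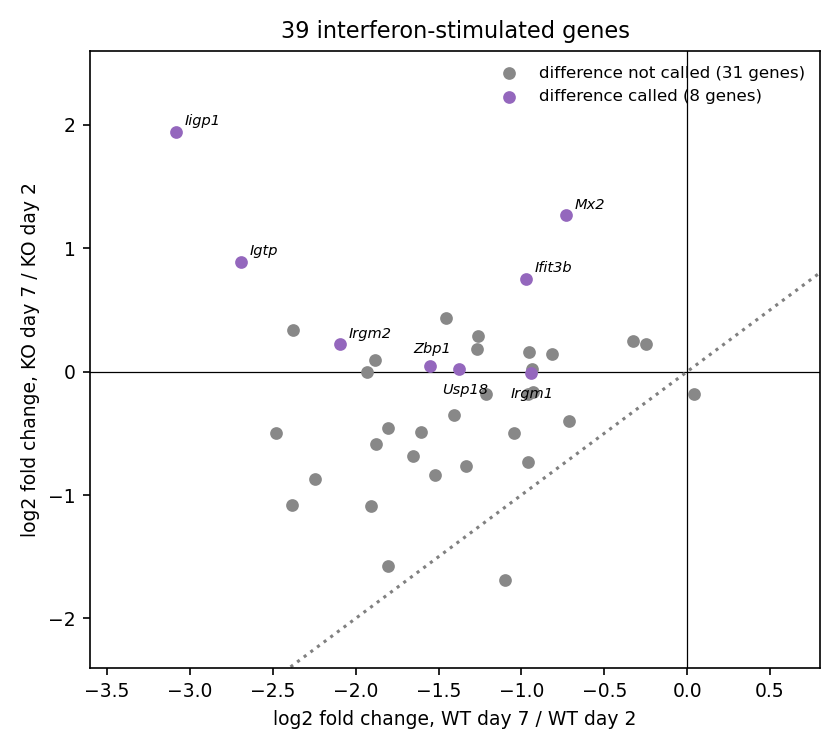
Log2 fold changes of 39 interferon-stimulated genes from day 2 to day 7 in WT (horizontal axis) and KO crypts (vertical axis), with a dotted line of equal change. Purple points are the 8 genes with a called difference between the KO and WT changes, and all 8 lie above the line, where the medians over the 40 genes of the list are -0.09 in KO and -1.36 in WT.

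Of the 64 genes called lower in WT, 44 (68.8%) had a negative fold change in KO, where 51.0% of all genes did, and 9 were called lower and 1 higher (8.8% and 7.21% of all genes). Ifih1 (-0.74), Tnfsf10 (-0.79), Hpgd (-0.97) and Sult1b1 (-0.82) were among the 9. The 1 gene in the opposite direction was Areg, at 7.79, 4.39 and 7.16 CPM in KO day 2 and 38.4, 23.9 and 18.7 CPM in KO day 7 crypts (2.07, SE 0.38, adjusted p = 0.00173), and its change differed between KO and WT by 4.10 (SE 0.57, adjusted p = 0.000743). Of the 54 genes called higher in WT, 47 (87.0%) had a positive fold change in KO, against 49.0% of all genes, and 30 were called higher and 2 lower (7.21% and 8.8% of all genes). Scd2 was 64, 56.3 and 104 CPM in KO day 2 and 670.2, 368 and 332 CPM in KO day 7 crypts (2.61, adjusted p = 0.000163), and Slc6a7 (1.53) was also called. The 2 lower genes were Man2c1 and Thbs1, named after their values were seen.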

How the data were processed

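The study describes 1 mouse per library, and per the labels ribosomal RNA was depleted from total RNA of crypts and the fragments were sequenced in pairs. The authors aligned the reads to mm10 with STAR 2.7.3 and deposited raw counts per gene from featureCounts 1.6.4 (their notes also name HTSeq). The header of the count table names GENCODE release M23, whereas the methods name a later release, and fragments on exons shared by genes were counted for each gene. Strand was not used, so overlapping and antisense genes cannot be told apart.

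The deposited counts of all 18 libraries were fitted with edgeR 4.0.16 (R 4.3.3, limma 3.58.1) as a quasi-likelihood model with 1 mean per genotype and day, TMM scaling, edgeR's default filter on low counts (21349 of 55335 genes tested) and robust dispersions. The main contrast was WT day 7 minus WT day 2, the difference of the KO and WT changes was a contrast of the same model, and p-values were adjusted by Benjamini-Hochberg over all genes tested with a threshold of 0.05. The 20 genes that the study lists as differing by sex, Y-linked or X-linked, were left out. CPM was computed from the counts with TMM library sizes. With 3 libraries per group, edgeR's p-values set each change against a spread between mice that was estimated from all 18 libraries. The KO and day 14 libraries thus entered this spread as well. Totals were 15285285 to 31493484 counts in the 6 libraries.

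Genes were named as the 12 largest called changes per direction with at least 1 CPM and no overlap between days, the 5 of smallest p per direction, up to 4 called members of each of 34 gene lists, and, for lists without a call, the 2 members of highest level. Others are said to be named after their values were seen or appear as examples of a list. The members, lists and tests were chosen with earlier results of these data known. Summed marker levels were set against each other in an exact permutation test (two-sided). Alternatives were DESeq2 1.42.0, other scalings and filters, other sets of libraries, a replicate block, the Y-linked level as a covariate, GC correction and leaving out each library. The scripts were first tested on simulated data in which the changed genes were known. Promoter sequences were those of RefSeq (GRCm38.p6). Some called genes are not reported here, although they stay in all counts and medians.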

Additional observations from a re-analysis of the deposited data

Results flagged for a closer look

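For 20 of the 98 named genes the change from day 2 to day 7 differed between KO and WT crypts. The test was that of the difference itself (edgeR, adjusted p under 0.05), which called 4.37% of all genes tested. The 98 include genes named for the size or the p-value of their WT change. That change enters the difference, so the 20 cannot be set against the share of all genes. The difference, KO change minus WT change on the log2 scale, was positive for interferon and antigen presentation genes: 0.93 for Irgm1, 1.28 for Slfn2, 1.36 for Ifi47, 1.39 for Usp18, 1.6 for Zbp1, 2.01 for Gm12250, 2.26 for Psmb8 and 2.31 for Irgm2. It was also positive for Dcun1d4 (0.72), Upp1 (0.97), Gm25732 (1.70) and Areg (4.10), which was called in opposite directions in the 2 genotypes, and for the enteroendocrine granule genes Chga (1.01) and Chgb (1.23). The difference was negative for Card14 (-0.70), Sned1 (-1.05) and Fry (-1.44), which were called higher in WT, and for Slc12a2 (-1.17), Lgr5 (-1.54) and the Paneth cell gene Lyz1 (-2.17), which were not called in WT. Groups of 3 libraries are too small for the check of single far samples.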

How the results depend on the processing

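All 118 genes kept their direction in every alternative in which they were tested (110 of the 118 with a mean count of at least 50, all 118 in the others), whereas the number of calls moved. With 118 genes and 9 interferon genes in the reported fit, 1511 (678 higher) and 30 were called by DESeq2's Wald test, 1012 (419 higher) and 22 without a filter, 494 (273 higher) and 20 with a mean count of at least 50, 288 (181 higher) and 16 without the 20 most abundant genes, 576 (253 higher) and 18 in the 6 WT libraries alone, 64 (29 higher) and 7 in the 9 WT libraries, and 1390 (657 higher) and 25 with the Y-linked level as a covariate. With GC correction, chosen after seeing the data, 21 (2 higher) and 2 were called. Upper quartile scaling gave 171 (100 higher) and 7. The cause of these differences was not tested. The replicate block gave 19 (2 higher) and 4, but same-numbered libraries of the 2 days did not deviate together (correlations 0.05, -0.08 and 0.00), so the numbers do not pair the mice. Leaving out each library gave 0 to 535 genes and 0 to 24 interferon genes, with 0 and 0 without day 2 replicate 1 or day 7 replicate 3. The difference of the KO and WT changes was called in 934 genes, in 1402 by DESeq2 and in 500 to 811 with a WT library left out (500 without day 2 replicate 1, 584, 585 and 585 without day 7 replicates 1, 2 and 3), and the interferon genes among them numbered 0 to 16 over all alternatives. Day 14 against day 7 gave 17 genes, 49 by DESeq2, 59 without a filter, 3 in the 9 WT libraries, 5 with the replicate block, 9 without robust dispersions and 0 to 11 with a library left out (10, 3 and 11 without day 2 replicates 1, 2 and 3, and 10, 0 and 0 without day 7 replicates 1, 2 and 3). With 3 mice per day, a gene missing the threshold is not shown to be equal on the 2 days.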

Other observations

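Energy metabolism genes had lower medians at day 7 with no call. The 80 nuclear genes of oxidative phosphorylation tested had a median of -0.39 (log2 fold change), with 35 at an unadjusted p under 0.05 and lower (11.5% of all genes tested), and the 24 genes of fatty acid oxidation and PPAR targets had a median of -0.46, with 10. The 13 mitochondrially encoded genes had a median of -0.37, with 2. The 87 cytosolic ribosomal protein genes tested (median -0.29) and the 67 replication-dependent histone genes tested (median -0.32) also lay below the median of all genes, with 0 called in edgeR's test and 4 and 2 at an unadjusted p under 0.05 and lower, which are smaller shares than the 11.5% of all genes. Day 7 replicate 2 stood apart in both, at 0.13 (ribosomal) and -0.02 (histone) relative to the mean of day 2, against -0.62 and -0.48 and against -0.55 and -0.38 in day 7 replicates 1 and 3. The nuclear oxidative phosphorylation list stood at -0.58, -0.13 and -0.47 in day 7 replicates 1 to 3, against -0.16 to 0.21 at day 2. The fatty acid oxidation list stood at -0.76, -0.16 and -0.45, against -0.22 to 0.27. Day 7 replicate 2 thus lay within the range of day 2 in these energy lists as well.

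Lists of stress and hormone responses had medians from -0.47 to -0.05. The 22 p53 target genes had a median of -0.10, the 27 genes of the integrated and ER stress responses of -0.05, the 16 glucocorticoid response genes tested of -0.30, the 18 NRF2 target genes of -0.35 and the 21 immediate early genes tested of -0.47, each with 0 called and 2 to 6 at an unadjusted p under 0.05 and lower, where 11.5% of all genes were. The 20 microbe-responsive epithelial genes tested had a median of 0.19 with 0 called. Genes of the proximal small intestine (11 tested) had a median of -0.59 and those of ileal bile acid and vitamin B12 uptake (9 tested) of 0.05, with 0 called in either. The 31 enteroendocrine cell genes tested had a median of -0.35 with 0 called and 9 at an unadjusted p under 0.05 and lower, against 11.5% of all genes.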
